A study of Rattus norvegicus with 12 samples.

Results

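The set described here comprises 10 genes of glucose uptake and glycolysis, measured in rat heart muscle. It holds the transporters Slc2a1 and Slc2a4, the hexokinases Hk1 and Hk2, and the enzymes Gpi, Pfkm, Aldoa, Pgam2, Eno3 and Ldhb. The genes were listed by name, and each matched 1 entry of an expression table of 17602 genes. Bulk RNA sequencing had been done on cardiac muscle of ZSF1 rats, a strain whose obese animals carry hypertension and metabolic syndrome and are used to model heart failure with preserved ejection fraction. The NAM-treated group held 4 obese samples from animals that drank 24 mM nicotinamide (NAM), a precursor of the coenzyme NAD+, between weeks 8 and 20 of age. The obese group held 4 samples and the lean control group 4, and no NAM treatment is labelled for these 8. The labels call the obesity diet-induced, and the sources used here give no genotype, sex or age at sampling. All 3 groups share the strain and the tissue. The labels do not say that the 4 samples of a group came from separate animals, so p-values measure the spread between these samples.

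Glucose enters heart muscle cells through the transporters GLUT1, encoded by Slc2a1, and GLUT4, encoded by Slc2a4, which moves from internal vesicles to the cell surface when insulin or contraction calls for it. Hexokinase then traps glucose as glucose 6-phosphate, and the glycolytic enzymes split the sugar and convert it to pyruvate, with lactate dehydrogenase exchanging pyruvate and lactate. The adult heart draws most of its energy from fatty acids and keeps glucose and lactate as flexible further fuels. For several of these steps muscle has its own form of the enzyme, encoded by genes such as Pfkm, Pgam2 and Eno3, beside a widely expressed form.

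Promoter windows were available from RefSeq (GRCr8) for 9 of the 10 genes, in 12 windows of 300 bases that run from 250 bases before to 50 bases after an annotated start. A search of both strands for CANNTG (the E-box core), GGGCGG (a GC box) and TATAAA found them in 6, 5 and 2 of the 9 genes. By window they were found in 7, 5 and 2 of the 12, beside 72.1%, 33.1% and 14.2% of all 33469 windows. These letters are a description of the windows and not evidence of binding, and the motifs did not overlap one another in the windows printed here. Below stand Hk2, the matched gene with the lowest ratio of obese to lean means, Pgam2, the muscle phosphoglycerate mutase, and Slc2a1, the transporter that passed no test. Their windows are at chr4:116841226-116841525 on the minus strand, chr14:84897825-84898124 on the minus strand and chr5:138002272-138002571 on the plus strand, read 5′ to 3′, with the motif matches in capitals.
Hk2: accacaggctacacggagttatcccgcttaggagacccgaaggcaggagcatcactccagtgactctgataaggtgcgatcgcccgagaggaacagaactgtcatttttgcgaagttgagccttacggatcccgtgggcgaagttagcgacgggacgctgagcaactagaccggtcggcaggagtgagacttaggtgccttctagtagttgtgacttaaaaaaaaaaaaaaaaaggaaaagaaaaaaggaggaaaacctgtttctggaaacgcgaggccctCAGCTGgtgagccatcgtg
Pgam2: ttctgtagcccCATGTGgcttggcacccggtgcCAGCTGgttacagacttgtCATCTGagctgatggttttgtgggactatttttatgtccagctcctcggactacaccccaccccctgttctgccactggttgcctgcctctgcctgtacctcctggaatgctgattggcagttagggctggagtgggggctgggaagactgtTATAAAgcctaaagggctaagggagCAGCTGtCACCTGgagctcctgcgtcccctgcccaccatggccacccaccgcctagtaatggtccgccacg
Slc2a1: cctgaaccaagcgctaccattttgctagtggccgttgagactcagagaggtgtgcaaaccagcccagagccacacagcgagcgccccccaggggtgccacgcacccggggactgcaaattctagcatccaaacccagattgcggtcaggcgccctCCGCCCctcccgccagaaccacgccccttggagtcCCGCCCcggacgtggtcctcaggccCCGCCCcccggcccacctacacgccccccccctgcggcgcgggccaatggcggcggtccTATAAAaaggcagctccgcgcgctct
The Hk2 window holds 1 E-box core. The Pgam2 window holds 5 E-box cores and 1 TATAAA, and the Slc2a1 window holds 3 GC boxes and 1 TATAAA and no E-box core.

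Expression is given in TPM, the length-corrected share of a sample's transcripts, so levels of different genes can be compared. TPM in a sample must add up to a fixed total, and the obese samples gave more of that total to mitochondrially encoded transcripts. These took 69.9% to 73.8% of TPM in NAM-treated, 74.6% to 75.5% in obese and 66.2% to 70.4% in lean samples. The median log2 change of the 10526 genes kept for testing was 0.25 for NAM-treated against obese and -0.20 for obese against lean samples as deposited. Values were therefore also rescaled, each sample being divided by the median ratio of its genes to their geometric mean over samples, and the divisors were 0.994 to 1.17 in NAM-treated, 0.841 to 0.928 in obese and 1.03 to 1.09 in lean samples. Changes are in log2(TPM + 1) with their standard errors (SE), and each adjusted p is limma's over all 10526 genes within its comparison, called when under 0.05. Depth cannot be recovered from TPM. No 2 of the 12 samples held the same values.

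All 10 genes had at least 1 TPM in at least 4 samples, and their levels spanned nearly 3 orders of magnitude. Ldhb, the heart form of lactate dehydrogenase, was the highest in every group, at 1110.1 ± 91.5 TPM in NAM-treated, 897 ± 144 TPM in obese and 1225 ± 55.0 TPM in lean samples (SD, n = 4 each). Aldoa and then Pgam2 followed, and Hk1, Hk2 and Slc2a1 were, in that order, the lowest in all 3 groups. In the middle, the neighbours Pgam2 and Eno3 overlapped in NAM-treated samples, Eno3 and Pfkm in obese and lean samples, and Slc2a4 and Gpi in lean samples. In lean samples Slc2a4 averaged 63.4 TPM and Gpi 63.0 TPM, while Slc2a4 lay below Gpi without overlap in the NAM-treated and the obese samples.

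**Figure D1:**
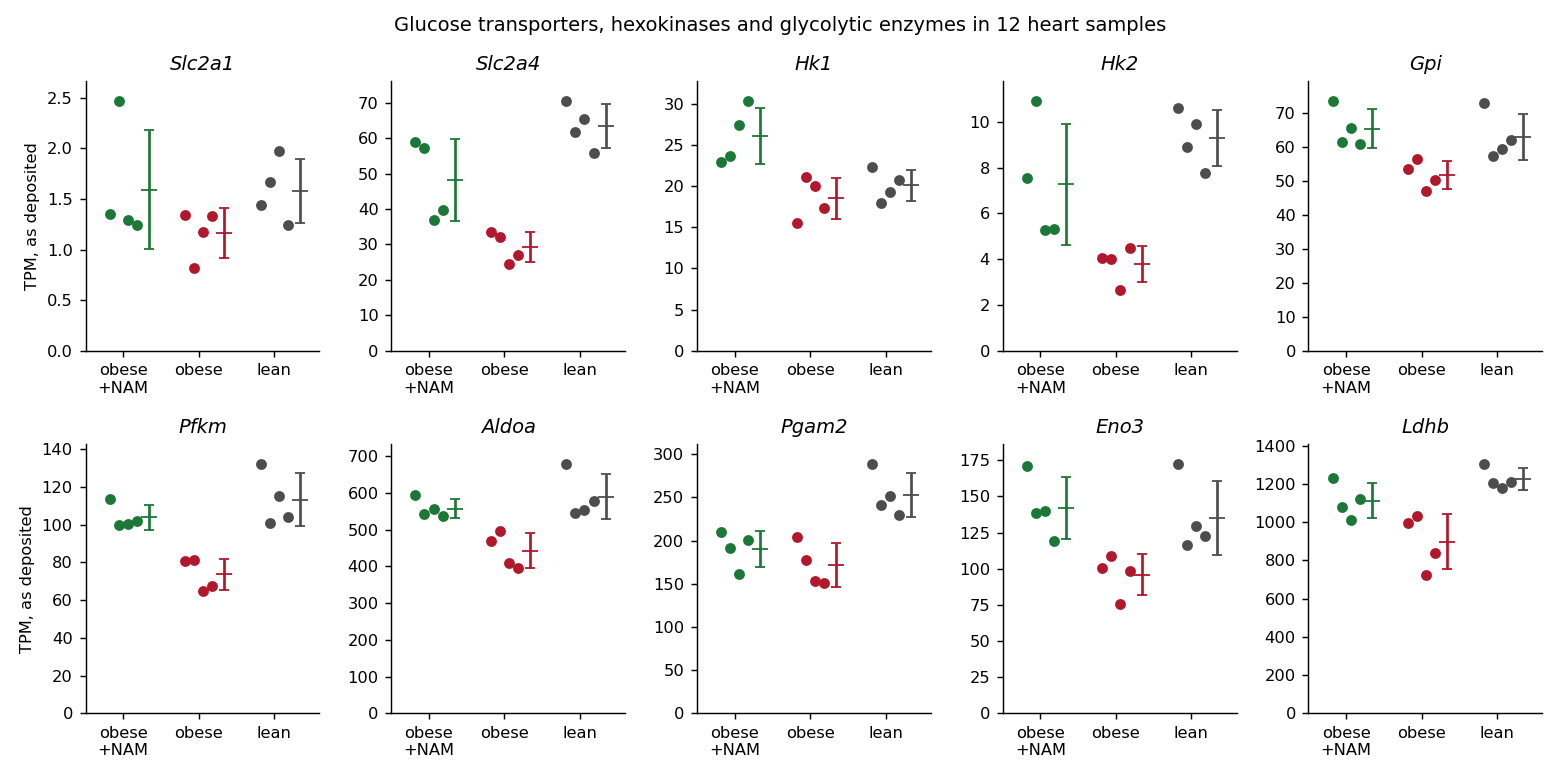
Deposited TPM (y axis, 1 panel per gene, each axis from 0) of the 10 genes in every sample, with NAM-treated samples on the left, obese samples in the middle and lean samples on the right; the crossed bars beside the points mark the group mean and 1 SD (n = 4). Slc2a4 and Hk2 lie lowest in all 4 obese samples, with the NAM-treated samples in between or reaching the lean range.

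Slc2a4 (ENSRNOG00000017226.6), the insulin-responsive transporter, was lower in obese hearts on both scales. It stood at 59.0, 57.2, 37.0 and 39.7 TPM in the 4 NAM-treated samples, at 33.4, 32.1, 24.5 and 27.0 TPM in the obese samples and at 70.5, 61.7, 65.4 and 56.0 TPM in the lean samples. Every obese sample lay below every lean and every NAM-treated sample, and the NAM-treated samples fell into a high and a low pair, the high pair reaching into the lean range. The obese mean was 0.461 times the lean mean, and the log2 change was -1.10 (SE 0.15, adjusted p = 0.00183). The NAM-treated mean was 1.65 times the obese mean, and the log2 change was 0.68 (SE 0.15, adjusted p = 0.0082). Against lean samples, the change of NAM-treated samples was -0.41 (adjusted p = 0.203) and the groups overlapped.

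After rescaling, Slc2a4 stood at 50.4, 57.5, 32.9 and 35.3 TPM in NAM-treated, at 39.7, 34.6, 28.0 and 30.9 TPM in obese and at 64.4, 59.9, 62.8 and 53.6 TPM in lean samples. The obese samples still lay below all lean samples, but now overlapped the NAM-treated ones. The change in obese samples was -0.84 (SE 0.17, adjusted p = 0.035), the only call among the 10 genes on this scale. This call ended when any 1 lean sample, or obese replicate 2, 3 or 4, was left out, with the highest adjusted p, 0.101 at a change of -0.81, without lean replicate 1. The NAM-treated samples differed from the obese ones by 0.37 (adjusted p = 0.309), and from the lean ones by -0.48 (adjusted p = 0.165).

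Slc2a1 (ENSRNOG00000007284.7), the insulin-independent transporter, was close to the detection filter. It stood at 1.35, 2.47, 1.29 and 1.25 TPM in NAM-treated, at 1.34, 0.816, 1.17 and 1.33 TPM in obese and at 1.44, 1.67, 1.97 and 1.24 TPM in lean samples. All 3 groups overlapped, and NAM-treated replicate 2 was the highest of the 12 samples. The changes were 0.24 for NAM-treated against obese (adjusted p = 0.256), -0.25 for obese against lean (adjusted p = 0.271) and -0.01 for NAM-treated against lean samples (adjusted p = 0.981). Without NAM-treated replicate 2 the first of these was 0.09 (adjusted p = 0.61). Rescaled, they were 0.06, -0.10 and -0.04 (adjusted p = 0.901, 0.826 and 0.929). Slc2a1 is abundant in endothelial cells as well as in muscle cells, and 7 endothelial markers summed to between 83.4 and 102 TPM in NAM-treated, 75.2 and 85.2 TPM in obese and 81.5 and 94.2 TPM in lean samples. As deposited, 2 of these 7 rose with NAM and 1 fell in obese samples, close to the 28.8% and 16.5% of all kept genes. Rescaled, 0 and 0 did, and the part of these markers in the Slc2a1 level was not tested. In bulk tissue, fewer cells of a type and less RNA per cell cannot be told apart.

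Of the 2 hexokinases, Hk2 was called in obese hearts as deposited and Hk1 was not. Their ratio did not pass an adjusted test that complete separation alone could not pass. Hk2 (ENSRNOG00000006116.3), the insulin-regulated hexokinase of muscle, stood at 7.54, 10.9, 5.29 and 5.33 TPM in NAM-treated, at 4.04, 4.01, 2.67 and 4.47 TPM in obese and at 10.6, 8.91, 9.92 and 7.78 TPM in lean samples. Every obese value lay below all others, and NAM-treated replicates 3 and 4 were nearer to the obese than to the lean samples. The obese mean was 0.408 times the lean mean, and Hk2 fell by 1.11 (SE 0.19, adjusted p = 0.00402), the lowest ratio of means among the 10 genes. With NAM it rose by 0.75 (SE 0.19, adjusted p = 0.0143), to 1.91 times the obese mean. The NAM-treated samples overlapped the lean ones (change -0.36, adjusted p = 0.369).

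Rescaled, Hk2 stood at 6.43, 11.0, 4.71 and 4.74 TPM in NAM-treated, at 4.80, 4.32, 3.06 and 5.11 TPM in obese and at 9.68, 8.64, 9.53 and 7.45 TPM in lean samples. The obese samples remained below every lean sample and overlapped the NAM-treated ones. The change in obese samples was -0.90 (SE 0.22, adjusted p = 0.0649) and missed the threshold, which it passed without NAM-treated replicate 2 (adjusted p = 0.0184), a sample outside this comparison that adds to the shared estimate of spread. The change with NAM was 0.48 (adjusted p = 0.304), and 0.25 (adjusted p = 0.512) without NAM-treated replicate 2.

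Hk1 (ENSRNOG00000046891.2), the widely expressed hexokinase that binds to mitochondria, was called with NAM alone. It stood at 22.9, 23.7, 27.4 and 30.3 TPM in NAM-treated, at 15.6, 21.1, 20.1 and 17.4 TPM in obese and at 22.3, 17.9, 19.3 and 20.7 TPM in lean samples. Obese and lean samples overlapped, and every NAM-treated sample lay above all of them. Hk1 rose by 0.47 in NAM-treated against obese samples (SE 0.12, adjusted p = 0.0116), to 1.41 times the obese mean. Its changes in obese against lean samples (-0.12, adjusted p = 0.512) and in NAM-treated against lean samples (0.36, adjusted p = 0.151) were not called. After rescaling all 3 groups overlapped, the change of NAM-treated against obese samples was 0.16 (adjusted p = 0.476), and that of obese against lean samples changed sign, to 0.13 (adjusted p = 0.577).

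Hk1 transcripts outnumbered those of Hk2 in every sample, and a ratio of 2 genes within a sample does not depend on the scaling between samples. The Hk1 to Hk2 ratio was 3.04, 2.17, 5.19 and 5.69 in NAM-treated, 3.86, 5.26, 7.50 and 3.88 in obese and 2.11, 2.01, 1.95 and 2.66 in lean samples. All obese ratios exceeded all lean ratios, and the NAM-treated ratios overlapped both other groups. The log2 ratio was higher by 1.19 in obese than in lean samples, with the smallest p that an exact 2-sided permutation test of 4 against 4 samples can give (p = 0.0286). Adjusted over the 24 tests of this kind this was 0.114, above the threshold. Complete separation of 1 ratio cannot pass alone, because a pass needs most of the 24 tests at the smallest p. The adjusted value therefore does not decide whether the ratio differs.

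Of the upper enzymes of glycolysis, Pfkm and Aldoa fell in obese hearts as deposited, and Pfkm, Gpi and Aldoa rose with NAM. Pfkm (ENSRNOG00000057988.1), the muscle form of phosphofructokinase, which commits sugar to glycolysis, stood at 113, 99.9, 100.2 and 102 TPM in NAM-treated, at 80.5, 81.1, 65.0 and 67.8 TPM in obese and at 132, 101, 115 and 104 TPM in lean samples. The obese samples lay below all others, and the NAM-treated and lean samples overlapped. Pfkm fell by 0.61 in obese samples (SE 0.10, adjusted p = 0.00357), to 0.651 times the lean mean, and rose by 0.50 with NAM (SE 0.10, adjusted p = 0.00597), to 1.41 times the obese mean. Rescaled, the obese samples, at 74.3 to 95.7 TPM, still lay below the lean ones, at 98.0 to 121 TPM, but the change of -0.36 was not called (adjusted p = 0.0789, and 0.0359 without obese replicate 1). The change with NAM was then 0.17 (adjusted p = 0.381).

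Gpi (ENSRNOG00000023150.5), which converts glucose 6-phosphate to fructose 6-phosphate, stood at 73.6, 61.6, 65.7 and 61.1 TPM in NAM-treated, at 53.6, 56.4, 47.0 and 50.4 TPM in obese and at 72.9, 57.5, 59.6 and 62.2 TPM in lean samples. The obese samples were below all others by a narrow margin. Gpi rose with NAM by 0.33 (SE 0.10, adjusted p = 0.0223), a call that ended without obese replicate 3 or 4 or NAM-treated replicate 1 or 3 (highest adjusted p 0.0693). The change in obese against lean samples, -0.27, was not called (adjusted p = 0.0645). After rescaling the means nearly coincided, at 59.4 ± 3.88 TPM in NAM-treated, 59.0 ± 4.30 TPM in obese and 59.8 ± 4.81 TPM in lean samples (SD, n = 4 each).

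Aldoa (ENSRNOG00000052802.1), the aldolase of muscle, which splits fructose 1,6-bisphosphate, stood at 594, 542, 556 and 536 TPM in NAM-treated, at 468, 495, 409 and 396 TPM in obese and at 679, 546, 555 and 579 TPM in lean samples. Every obese sample was below all others, and the NAM-treated samples overlapped the lean ones. Aldoa fell by 0.41 in obese samples (SE 0.09, adjusted p = 0.00981) and rose by 0.34 with NAM (SE 0.09, adjusted p = 0.0163). The rise lost its call without NAM-treated replicate 1 (0.31, adjusted p = 0.0516). Rescaled, the groups overlapped, with changes of 0.01 for NAM-treated against obese and -0.16 for obese against lean samples (adjusted p = 0.957 and 0.359).

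Among the lower enzymes, Pgam2 (ENSRNOG00000013532.7), the muscle phosphoglycerate mutase, fell in obese hearts as deposited and was not called with NAM. It stood at 209.6, 191, 161 and 201 TPM in NAM-treated, at 205, 178, 154 and 151 TPM in obese and at 289, 241, 251 and 229 TPM in lean samples. The NAM-treated and obese samples overlapped, and both groups lay wholly below the lean samples. Pgam2 fell by 0.56 in obese samples (SE 0.12, adjusted p = 0.00746), to 0.679 times the lean mean. The change with NAM was 0.15 (adjusted p = 0.326), and NAM-treated samples were at 0.754 times the lean mean, a change of -0.41 that was not called (adjusted p = 0.104).

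Rescaled, Pgam2 stood at 179, 192, 144 and 178 TPM in NAM-treated, at 243, 192, 175 and 172 TPM in obese and at 264, 234, 241 and 219 TPM in lean samples. All NAM-treated samples remained below all lean samples, whereas obese replicate 1 now lay within the lean range. The change of NAM-treated against lean samples was -0.47 (SE 0.12) and narrowly missed the threshold (adjusted p = 0.0587), which it passed without obese replicate 1 (adjusted p = 0.0246), again a sample outside the comparison. The changes of NAM-treated against obese samples, -0.17, and of obese against lean samples, -0.30, were not called (adjusted p = 0.528 and 0.211). Pgam2 is also a gene of skeletal muscle, and beside it the measured skeletal muscle markers summed to 194 to 215 TPM in NAM-treated, 155 to 198 TPM in obese and 267 to 342 TPM in lean samples. Nearly all of this sum was the creatine kinase gene Ckm, which the heart expresses too and which fell in obese samples as deposited (-0.68, adjusted p = 0.0021). Ckm was also lower in NAM-treated than in lean samples, with changes of -0.46 as deposited (adjusted p = 0.0382) and -0.52 rescaled (adjusted p = 0.0193). The markers Myh4, Mylpf and Actn3, below the filter, averaged at most 0.414 TPM in any group. Ckm and Tnnt3 were the 2 skeletal muscle markers kept. Both had negative changes in obese and in NAM-treated against lean samples on both scales, and Tnnt3 was not called. The part of the marker levels in the Pgam2 change was not tested.

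Eno3 (ENSRNOG00000004078.7), the muscle enolase, stood at 171, 138, 140.0 and 119.5 TPM in NAM-treated, at 101, 109, 75.6 and 98.4 TPM in obese and at 173, 116, 129 and 123 TPM in lean samples. The obese samples were below all others, and replicate 1 was the highest in the NAM-treated and in the lean group. Eno3 rose with NAM by 0.57 (SE 0.15, adjusted p = 0.0143), to 1.48 times the obese mean. Its change in obese samples, -0.49 (SE 0.15, adjusted p = 0.0376), was called, and the call ended without lean replicate 1, 3 or 4 or obese replicate 1, 3 or 4, with a highest adjusted p of 0.102 at -0.36 without lean replicate 1. Rescaled, the changes were 0.24 with NAM (adjusted p = 0.409) and -0.23 in obese samples (adjusted p = 0.434).

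Ldhb (ENSRNOG00000013000.7), which in the heart favours the use of lactate, stood at 1230.3, 1079.7, 1012 and 1119 TPM in NAM-treated, at 996, 1032, 721 and 839.9 TPM in obese and at 1305, 1206, 1179 and 1210.0 TPM in lean samples. The obese samples lay below all lean samples and overlapped the NAM-treated ones, and obese replicate 3 was the lowest of all. Ldhb fell by 0.46 in obese samples (SE 0.10, adjusted p = 0.0116), to 0.733 times the lean mean. It rose by 0.32 with NAM (adjusted p = 0.0376), a call that ended without obese replicate 3 or 4 or NAM-treated replicate 1 or 4 (highest adjusted p 0.109). Rescaled, NAM-treated samples, at 901 to 1086 TPM, lay below all lean samples, at 1132 to 1192 TPM, with a change of -0.21 that was not called (adjusted p = 0.317). The other rescaled changes were -0.01 for NAM-treated against obese samples (adjusted p = 0.984) and -0.20 for obese against lean samples (adjusted p = 0.336).

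**Figure D2:**
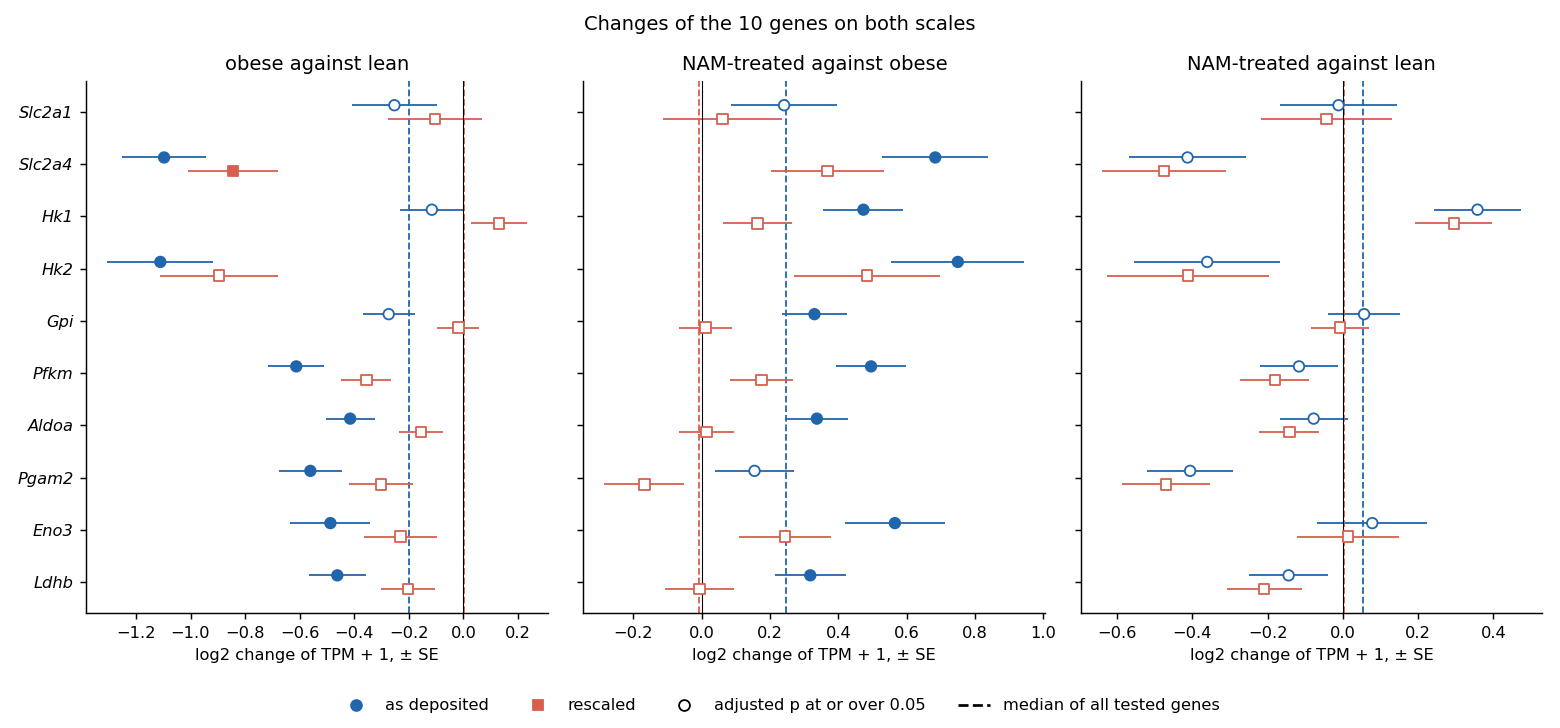
Log2 change of TPM + 1 (x axes) with 1 SE for the 10 genes (1 line per gene) in each of the 3 comparisons, on the deposited (circles) and the rescaled scale (squares); filled symbols have an adjusted p under 0.05, and dashed lines mark the median of all tested genes. On the deposited scale 8 genes rose with NAM and 7 fell in obese samples, whereas after rescaling Slc2a4 in obese against lean samples is the one filled square.

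Side by side, 8 of the 10 genes rose in NAM-treated against obese samples as deposited (Slc2a4, Hk1, Hk2, Gpi, Pfkm, Aldoa, Eno3 and Ldhb) and 0 fell. Of all kept genes, 28.8% rose and 0.466% fell in this comparison. In 7 of the 10 genes the NAM-treated samples lay above every obese sample, against 28.0% of all genes. Their median change was 0.41, beside 0.25 over all genes. After rescaling 0 of the 10 rose or fell by limma's adjusted p, against 0.2% of all genes rising and 0.513% falling, and the unadjusted p was under 0.05 for 2 (Slc2a4 and Hk2, both higher), against 7.27% of all genes higher and 8.42% lower. The rescaled median change of the 10 genes was 0.11, beside -0.01 over all genes.

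In obese against lean samples as deposited, 7 of the 10 genes fell (Slc2a4, Hk2, Pfkm, Aldoa, Pgam2, Eno3 and Ldhb) and 0 rose. The share of all kept genes that fell was 16.5% and the share that rose 0.352%. In 8 genes, these 7 and Gpi, the obese samples lay below every lean sample, against 23.2% of all genes, and the median change was -0.47, beside -0.20 over all genes. After rescaling 1 gene, Slc2a4, fell and 0 rose, against 0.751% and 0.589% of all genes. The obese samples were then below every lean sample for 3 genes (Slc2a4, Hk2 and Pfkm), against 5.31% of all genes, and the median was -0.22, beside 0.00 over all genes. The 3 comparisons share samples, so their values are placed beside each other and not tested against each other.

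In NAM-treated against lean samples 0 of the 10 genes rose or fell by limma's adjusted p on either scale. As deposited, 0.865% of all genes rose and 0.969% fell, and rescaled 0.77% rose and 1.59% fell. An unadjusted p under 0.05 was reached on each scale by Hk1, higher in NAM-treated samples, and by Slc2a4 and Pgam2, lower in them. Of all genes, 10.6% were higher and 6.39% lower at this unadjusted p as deposited, and 7.42% and 9.41% rescaled. The median change of the 10 genes was -0.10 as deposited, beside 0.05 over all genes, and -0.16 rescaled, beside 0.00.

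As deposited, cardiomyocyte markers moved with these genes. After rescaling, fibroblast, macrophage and erythroid markers had median changes of the opposite sign to the 10 genes with NAM and in obese against lean samples. Between NAM-treated and lean samples the rescaled medians were -0.16 for the 10 genes, -0.10 for fibroblast, -0.20 for erythroid and 0.09 for macrophage markers. The 10 cardiomyocyte markers, which include troponin, myosin and myoglobin genes and are all well above 0, summed to 24082 to 27454 TPM in NAM-treated, 19571 to 22091 TPM in obese and 27495 to 31622 TPM in lean samples. As deposited, 9 of the 10 rose and 0 fell with NAM, beside 28.8% and 0.466% of all genes. In obese against lean samples 9 fell and 1, the beta myosin heavy chain gene Myh7, rose, beside 16.5% and 0.352%. Rescaled, 1 rose with NAM, beside 0.2% of all genes, and 2 fell and 1 rose in obese samples, beside 0.751% and 0.589%. The rescaled cardiomyocyte changes with NAM were negative for 5 and positive for 5 (median 0.05), and the rescaled median in obese samples was -0.21. The 7 fibroblast markers summed to 313 to 394 TPM in NAM-treated, 305 to 588 TPM in obese and 363 to 384 TPM in lean samples. All 7 had negative changes with NAM and positive ones in obese samples on both scales, with rescaled medians of -0.56 and 0.51. The gene Pi16 was called, falling with NAM on both scales (-1.15 as deposited, adjusted p = 0.00292) and rising in obese samples as deposited (0.51, adjusted p = 0.0464). The 8 macrophage markers summed to 94.9 to 103 TPM in NAM-treated, 41.9 to 194 TPM in obese and 67.0 to 103 TPM in lean samples. The 6 erythroid markers summed to 488 to 2304 TPM in NAM-treated, 1664 to 4027 TPM in obese and 725 to 1599 TPM in lean samples. Rescaled, all 8 macrophage markers had negative changes with NAM and positive ones in obese samples (medians -0.22 and 0.34), and the erythroid medians were -1.26 and 1.24. As deposited, the macrophage changes with NAM were negative for 4 and positive for 4 (median -0.007), and the median in obese samples was 0.13. The deposited erythroid medians were -0.96 and 1.02. By limma's adjusted p 0 of these 14 were called on either scale. The rescaled unadjusted p was under 0.05 for 5 with NAM, all lower, and for 6 in obese samples, all higher. Of all genes, 8.42% were lower with NAM and 8.14% higher in obese samples at this p. As deposited, 3 were lower and 0 higher with NAM, beside 1.07% and 41.4% of all genes. In obese samples 1 was lower and 1 higher as deposited, beside 32.5% and 1.32%. Obese replicate 3 had the highest of all 12 sums for fibroblast, macrophage, erythroid and adipocyte markers, at 588, 194, 4027 and 835 TPM. It also had the lowest Slc2a4, Hk2, Gpi, Pfkm, Eno3 and Ldhb of all samples as deposited. Without it 6 of the 10 genes rose with NAM and 6 fell in obese samples as deposited, and 0 and 0 did so rescaled. The part of any of these marker levels in the changes of the glucose genes was not tested. Atrial markers stood apart in NAM-treated replicate 1, with a sum of 1121 TPM against 187 to 244 TPM in the other NAM-treated samples. Without that sample 5 of the 10 genes rose with NAM as deposited, the calls of Gpi, Aldoa and Ldhb having ended. The shares of all genes called without obese replicate 3 or without NAM-treated replicate 1 are not given here. The counts in those fits are therefore not read as particular to the 10 genes or to the marker levels.

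The balance between forms of the same enzyme was compared in 8 ratios, which are free of the scaling between samples. In 24 exact 2-sided permutation tests, 8 ratios in 3 comparisons, 0 passed after adjustment. The smallest possible p of 0.0286 was reached by 6, with an adjusted value of 0.114. A ratio could pass only if most of the 24 tests reached that p, so the adjusted values do not decide whether any ratio differs. In obese against lean samples the ratios at the smallest p were Hk1 to Hk2 and Pfkl to Pfkm. The Pfkl to Pfkm ratio, of liver-type to muscle phosphofructokinase, was 0.0225 ± 0.00854 in NAM-treated, 0.0317 ± 0.00294 in obese and 0.0212 ± 0.00274 in lean samples (SD, n = 4 each). It was higher by 0.59 on the log2 scale in obese than in lean samples, with no overlap. Pfkl itself was close to the filter, at 2.31, 2.32 and 2.39 TPM in NAM-treated, obese and lean samples.

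In NAM-treated against lean samples the other 4 ratios at the smallest p were Pgam1 to Pgam2, Ldha to Ldhb, Pfkp to Pfkm and Aldoc to Aldoa, and all 4 were higher in NAM-treated samples. Pgam1, the widely expressed phosphoglycerate mutase, stood to Pgam2 as 0.316, 0.308, 0.470 and 0.370 in NAM-treated, 0.230, 0.322, 0.337 and 0.339 in obese and 0.214, 0.205, 0.190 and 0.252 in lean samples. The NAM-treated ratios lay above all lean ratios (log2 difference 0.75) and overlapped the obese ones (0.25, p = 0.343 by the exact permutation test). Ldha, the muscle form of lactate dehydrogenase, stood to Ldhb as 0.283 ± 0.0176 in NAM-treated, 0.274 ± 0.0382 in obese and 0.244 ± 0.0114 in lean samples (SD, n = 4 each), a log2 difference of 0.21 between NAM-treated and lean samples. The Pfkp to Pfkm ratio differed by 0.47 between these groups, and the Aldoc to Aldoa ratio by 1.70. Aldoc averaged under 1 TPM in each group, and without lean replicate 4 the difference was 0.91. The ratio of Slc2a1 to Slc2a4 was 0.0331 ± 0.00841 in NAM-treated, 0.0407 ± 0.0109 in obese and 0.0249 ± 0.00446 in lean samples (SD, n = 4 each), and the Eno1 to Eno3 ratio was 0.879, 1.05 and 0.980 on average in NAM-treated, obese and lean samples. Both overlapped between all groups.

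**Figure D3:**
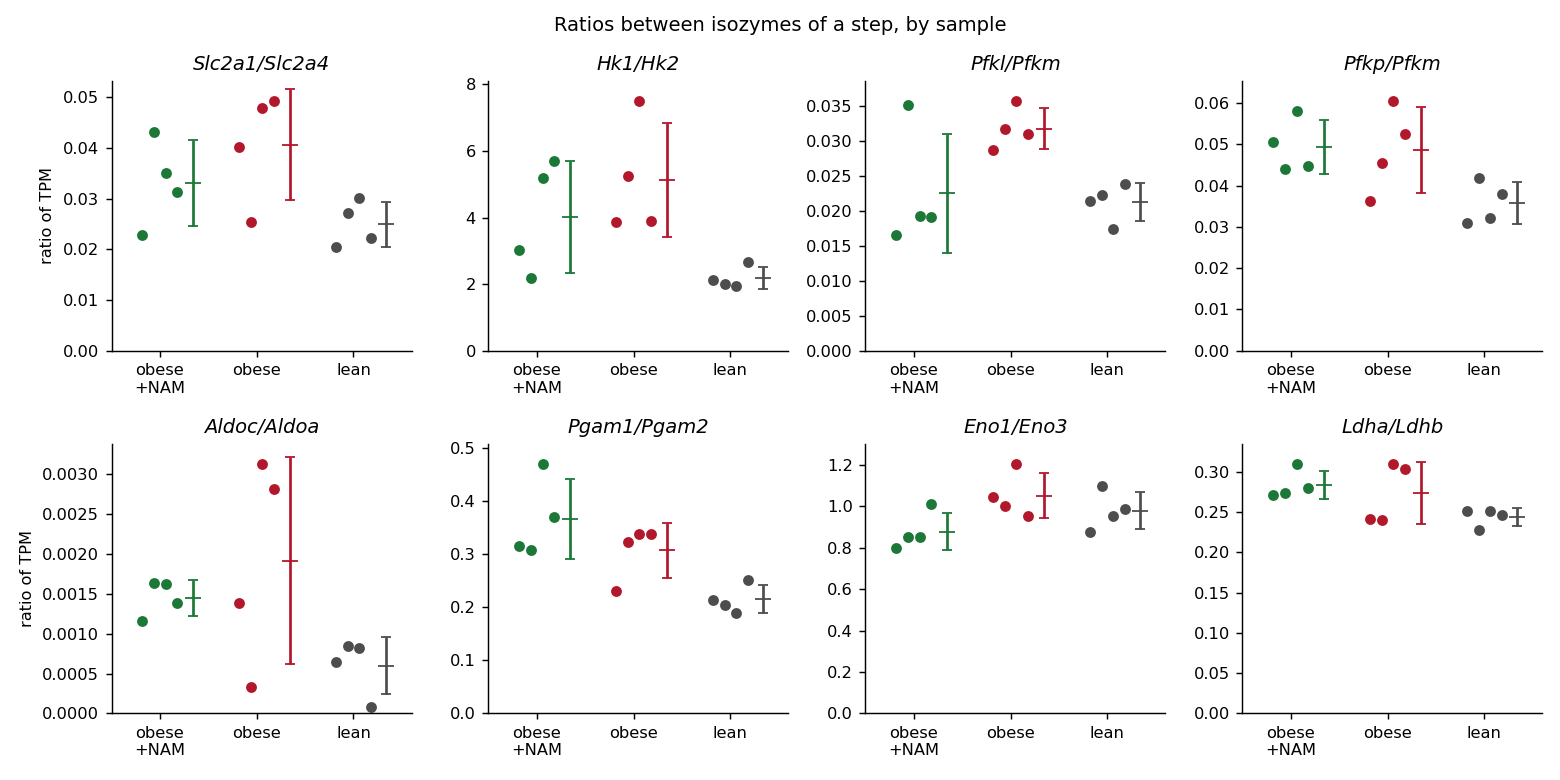
Ratios of TPM between 2 forms of an enzyme or transporter in each sample (linear y axes from 0, 1 panel per ratio), with NAM-treated, obese and lean samples from left to right and crossed bars for the group mean and 1 SD (n = 4). The obese Hk1 to Hk2 ratios, 3.86 to 7.50, lie above all lean ratios, 1.95 to 2.66, and the NAM-treated Pgam1 to Pgam2 ratios, 0.308 to 0.470, lie above all lean ones.

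The rest of the pathway was read in 9 lists of 116 genes, 92 of which were kept. As deposited, 55 of the 92 rose and 0 fell with NAM, and 40 fell and 0 rose in obese against lean samples, beside 28.8% and 16.5% of all genes. Rescaled, 0 changed with NAM by limma's adjusted p, while an unadjusted p under 0.05 was seen for 26 higher and 3 lower, against 7.27% and 8.42% of all genes. In obese samples 2 fell rescaled, Ppara and Mpc1, and 0 rose, beside 0.751% and 0.589% of all genes. The unadjusted p was under 0.05 for 25 lower and 7 higher, against 8.54% and 8.14% of all genes. Between NAM-treated and lean samples 1 was higher and 1 lower as deposited, beside 0.865% and 0.969% of all genes. Rescaled, 1 was higher and 4 lower in this comparison, beside 0.77% and 1.59% of all genes. Hkdc1, Gapdh, Slc2a3, Snap23, Phka2 and Pgd are not analysed here.

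Of 11 other glycolytic enzymes, 7 rose with NAM and 5 fell in obese samples as deposited, and 0 and 0 rescaled. The deposited shares over all genes were 28.8% and 16.5%. The deposited median changes of the list were 0.38 with NAM and -0.19 in obese samples, beside 0.25 and -0.20 over all genes. Pkm, the pyruvate kinase of muscle, averaged 103 ± 6.90 TPM in NAM-treated, 72.5 ± 3.69 TPM in obese and 101 ± 12.2 TPM in lean samples (SD, n = 4 each), a change of 0.50 with NAM (adjusted p = 0.00394) and of -0.47 in obese samples (adjusted p = 0.00525). Pgk1, phosphoglycerate kinase, rose by 0.51 with NAM (adjusted p = 0.00334), to 305 TPM against 214 TPM in obese samples. Ldhd, a mitochondrial D-lactate dehydrogenase, averaged 13.0 ± 1.48 TPM in NAM-treated, 12.2 ± 1.96 TPM in obese and 20.0 ± 3.08 TPM in lean samples (SD, n = 4 each). It fell by 0.67 in obese samples as deposited (adjusted p = 0.00534) and was lower in NAM-treated than in lean samples on both scales (rescaled -0.64, adjusted p = 0.0296). Ldha and Eno1 rose with NAM and fell in obese samples as deposited, and Pgam1 rose with NAM (0.40, adjusted p = 0.0169) with a change of -0.06 in obese samples (adjusted p = 0.73).

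Slc2a12, another sugar transporter of muscle and the only one kept of 9 listed, averaged 2.22 TPM in NAM-treated, 1.57 TPM in obese and 2.73 TPM in lean samples. It fell by 0.54 in obese samples and rose by 0.33 with NAM as deposited (adjusted p = 0.00474 and 0.0275). Of 11 genes of GLUT4 storage and sorting, 4 rose with NAM and 3 fell in obese samples as deposited, and 0 and 0 rescaled. The deposited shares over all genes were 28.8% and 16.5%. The deposited median changes of the list were 0.43 with NAM and -0.25 in obese samples, beside 0.25 and -0.20 over all genes. Sort1, which encodes sortilin, a sorting receptor of GLUT4 vesicles, averaged 4.46 TPM in NAM-treated, 2.62 TPM in obese and 3.70 TPM in lean samples. Rab10, a small GTPase of GLUT4 traffic, rose by 0.56 with NAM (adjusted p = 0.00334), and the vesicle protein gene Vamp2 by 0.49 (adjusted p = 0.00457). The rescaled changes of Sort1, Rab10 and Vamp2 with NAM were 0.34, 0.24 and 0.19 (adjusted p = 0.116, 0.127 and 0.291).

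Of 8 kept genes listed as regulators of Slc2a4 or Hk2 transcription, 4 rose with NAM and 3 fell in obese samples as deposited, and 0 and 1 rescaled. The deposited shares over all genes were 28.8% and 16.5%. Whether these genes act on Slc2a4 or Hk2 in these hearts was not tested. Ppara, a nuclear receptor of fatty acid use, averaged 8.13 ± 0.468 TPM in NAM-treated, 4.54 ± 0.640 TPM in obese and 8.31 ± 0.961 TPM in lean samples (SD, n = 4 each). Its fall in obese samples held on both scales (-0.75 as deposited, adjusted p = 0.00189, and -0.53 rescaled, adjusted p = 0.0392), and its rise with NAM was 0.73 as deposited (adjusted p = 0.00292) and 0.45 rescaled (adjusted p = 0.0914). Ppargc1a, a coactivator of mitochondrial genes, changed as deposited by 0.56 with NAM and -0.66 in obese samples (adjusted p = 0.00609 and 0.00416), and rescaled by 0.28 and -0.43 (adjusted p = 0.197 and 0.058). Mef2a, a muscle transcription factor that binds the Slc2a4 promoter, averaged 23.7 TPM in NAM-treated, 14.2 TPM in obese and 17.2 TPM in lean samples and rose by 0.70 with NAM as deposited (adjusted p = 0.00421). Of 4 genes of fructose 2,6-bisphosphate, an activator of phosphofructokinase, 2 rose with NAM and 1 fell in obese samples as deposited. That one was Pfkfb2, the heart form of the enzyme that makes it, at 6.31 ± 1.49 TPM in NAM-treated, 4.72 ± 1.20 TPM in obese and 10.1 ± 2.17 TPM in lean samples (SD, n = 4 each), a change of -0.96 (adjusted p = 0.00547; rescaled -0.74, adjusted p = 0.0822). Pfkfb3 and Tigar rose with NAM by 0.66 and 0.31 as deposited (adjusted p = 0.0261 and 0.0324). Rescaled, these changes were 0.43 and 0.03 (adjusted p = 0.298 and 0.916). None of the 4 genes was called with NAM or in obese samples after rescaling.

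Of 14 genes of lactate and pyruvate fate, 9 rose with NAM and 9 fell in obese samples as deposited, and 0 and 1 rescaled. The deposited shares over all genes were 28.8% and 16.5%. Mpc1 and Mpc2 encode the mitochondrial pyruvate carrier. Mpc1 averaged 369 ± 35.1 TPM in NAM-treated, 299.7 ± 7.08 TPM in obese and 449 ± 17.2 TPM in lean samples (SD, n = 4 each) and fell in obese samples on both scales (-0.58, adjusted p = 0.00104, and -0.32 rescaled, adjusted p = 0.0392). Rescaled, both carrier genes were also lower in NAM-treated than in lean samples (Mpc1 -0.35, adjusted p = 0.0178, and Mpc2 -0.42, adjusted p = 0.0186). Pdha1, of the pyruvate dehydrogenase complex, rose by 0.56 with NAM and fell by 0.45 in obese samples as deposited (adjusted p = 0.00292 and 0.00575).

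Of 19 glycogen genes, 15 rose with NAM and 9 fell in obese samples as deposited, and 0 and 0 rescaled. Over all genes, 28.8% rose with NAM and 16.5% fell in obese samples as deposited. Ppp1r3d, a subunit that brings protein phosphatase 1 to glycogen, averaged 14.0 ± 0.555 TPM in NAM-treated, 7.63 ± 1.42 TPM in obese and 7.11 ± 1.51 TPM in lean samples (SD, n = 4 each). All NAM-treated samples lay above all others, and the rise was 0.81 against obese samples (adjusted p = 0.00411; rescaled 0.52, adjusted p = 0.116) and 0.91 against lean samples (adjusted p = 0.0095; rescaled 0.84, adjusted p = 0.00982). Gbe1, the glycogen branching enzyme, rose with NAM by 0.64 as deposited (adjusted p = 0.00359). Of 14 genes of the pentose phosphate, polyol and hexosamine branches, 4 rose with NAM and 1 fell in obese samples as deposited, shares close to and below the 28.8% and 16.5% of all genes. Their median change with NAM was 0.23 as deposited and -0.07 rescaled, beside 0.25 and -0.01 over all genes. Ogt, Oga and Gfpt1, of protein O-GlcNAc turnover and hexosamine synthesis, rose with NAM by 0.50, 0.50 and 0.45 as deposited (adjusted p = 0.00446, 0.00524 and 0.0201). Rescaled, these changes were 0.19, 0.20 and 0.18 and were not called (adjusted p = 0.3, 0.318 and 0.413). The glycerol 3-phosphate and malate-aspartate shuttles pass electrons from glycolysis to mitochondria. Of their 10 genes, 9 rose with NAM and 8 fell in obese samples as deposited, beside 28.8% and 16.5% of all genes. Rescaled, 0 and 0 did so. Got1 and Got2, the aspartate transaminases, rose with NAM by 0.62 and 0.55 (adjusted p = 0.00305 and 0.00359), and Gpd2, the mitochondrial glycerol 3-phosphate dehydrogenase, fell by 0.75 in obese samples (adjusted p = 0.00357) and was lower in NAM-treated than in lean samples after rescaling (-0.56, adjusted p = 0.048).

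Across the 12 samples, which share the 3 groups, the rescaled log2 values of Slc2a4 and Hk2 had a Pearson r of 0.944, the highest among the 10 genes, and Slc2a4 and Pfkm one of 0.907. Hk1 correlated negatively with each of the other 9 genes, the lowest value being -0.649 with Pgam2. Over all kept genes, the 5 most like Slc2a4 were LOC499235 (0.953), Entpd6 (0.949), Cmbl (0.948), Gcat (0.945) and Hk2 (0.944). Those most like Hk2 were Slc2a4 (0.944), LOC499235 (0.92), Lrrc14b (0.919), Acss1 (0.912) and Dbt (0.909). These correlations describe 12 samples and were not tested.

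**Figure D4:**
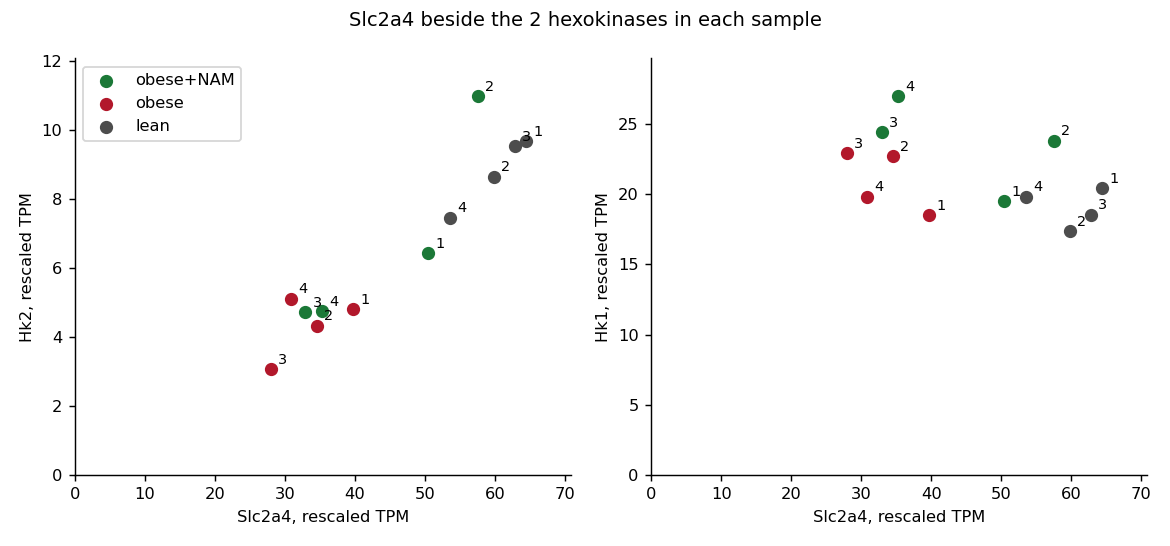
Rescaled TPM of Slc2a4 (x axis) against Hk2 (left, y axis in rescaled TPM) and Hk1 (right) in each of the 12 samples, coloured by group and numbered by replicate. Hk2 follows Slc2a4 closely (r = 0.944 on the log2 scale), with the 4 lean samples at the upper end, the 4 obese samples at the lower end and the NAM-treated samples at both, whereas r with Hk1 was -0.501.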

How the data were processed

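TPM per gene for 12 samples (4 per group) were taken from the authors' deposited table; the submitters' processing notes name the assembly Rnor_6.0 and limma without a version, and libraries were directional per the labels' protocols, while the sources used here name no aligner or quantifier. The 4 NAM-treated columns are deposited in TPM too but hold a text mark in place of a number for 498 genes, so 17104 of 17602 genes had 12 values. Of these, 10526 (61.5%) with at least 1 TPM in at least 4 samples were kept. Depth is unknown, and precision was judged from the spread within groups. How reads shared with processed pseudogenes of glycolytic genes were counted is not given.

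The test was limma 3.58.1 (R 4.3.3, statmod 1.5.0) on log2(TPM + 1), a scale that understates changes of low genes, with 3 group means over all samples, eBayes with trend and robust, and 2-sided p-values adjusted by Benjamini-Hochberg over kept genes within each comparison (threshold 0.05). It was run on deposited and on rescaled values (median of ratios to the geometric mean) and tested on simulated data. Ratios used exact permutation over 70 placements of 8 samples, enumerated in Python 3.11.15 with numpy 2.4.6. Equal replicate numbers did not pair samples. Up to 3 genes per pathway list were named, those with the smallest rescaled p among the called ones, and the partner genes of the ratios were named too; 1 gene so chosen is not reported here. The genes, lists and tests were chosen with earlier results of these data known. Alternatives were other pseudocounts, filters, scalings, sample weights, variance estimates, a replicate block, fits to 8 samples, and each sample left out.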

Additional observations from a re-analysis of the deposited data

Results flagged for a closer look

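Over the 10 genes on both scales and the 8 ratios, 84 groups of 4 samples were examined for a sample far from the other 3 (a gap, as a share of the group's range, above Dixon's critical value), and 5 had one; chance gives about 1 in 20. Slc2a1 in NAM-treated replicate 2 stood at 2.47 TPM against 1.25 to 1.35 TPM in the other 3, and at 2.48 TPM against 1.11 to 1.15 TPM after rescaling. In the same sample the Pfkl to Pfkm ratio was 0.0351, against 0.0165 to 0.0192 in the other NAM-treated samples. Pfkm was 113 TPM in NAM-treated replicate 1, against 99.9 to 102 TPM in the other 3. The Pgam1 to Pgam2 ratio was 0.230 in obese replicate 1, against 0.322 to 0.339 in the other obese samples.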

How the results depend on the processing

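Scaling moved the counts most. As deposited, 8 of the 10 genes rose with NAM and 7 fell in obese against lean samples; these became 0 and 1 under quantile normalization and 0 and 0 with TPM recomputed without mitochondrially encoded genes. Without the mitochondrial genes, 1 gene, Hk1, rose in NAM-treated against lean samples, against 0 as reported. Over all genes, the called number under these 2 scalings was 66 and 208 against 3077 with NAM, and 126 and 62 against 1770 in obese samples. Over all alternatives the called number of all genes ranged from 66 to 3751 with NAM, 62 to 2007 in obese samples and 69 to 569 (193 as reported) in NAM-treated against lean samples as deposited, and from 10 to 156 (75), 27 to 224 (141) and 105 to 379 (248) rescaled. With 1 sample left out, the counts ranged from 5 to 8 with NAM and from 6 to 7 in obese samples. After rescaling, the 1 fall in obese samples became 0 without a filter and with eBayes without trend and robust, 2 with a stricter filter (mean TPM of 5 or more) or a fit to the 8 samples compared, and 0 to 2 with 1 sample left out. The count of 0 in NAM-treated against lean samples became 1, Pgam2, with that filter, array weights, a fit to 8 samples or a replicate block, and 0 to 1 with 1 sample left out. Same-numbered samples deviated with correlations of -0.049 to 0.0724, so the replicate block rests on a shared number only; under it 8 rose with NAM and 7 fell in obese samples as deposited, and 0 rose and 1 fell rescaled. No ratio passed under any alternative run, where a pass again needed most tests at their smallest p. A block of 4 pairs cannot give a p below 0.125 at all. Of 1494 values of single genes and ratios under alternatives, 1424 kept their side of the threshold, 59 lost a call, 11 gained one and 0 called values changed sign; 52 uncalled ones did. As deposited, the fall of Eno3 in obese samples and the rise of Ldhb with NAM also lost their calls without a filter (adjusted p = 0.0677 and 0.0643), with eBayes without trend and robust (0.0512 and 0.0558) and in a fit to 8 samples (0.0507 and 0.0638), and Gpi gained a call in obese samples (-0.27, adjusted p = 0.0432) with the stricter filter.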
